A study of Mus musculus with 8 samples.

Results

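Natural killer (NK) cells were picked out of mouse tumors by the genes they express. A cell counted as an NK cell when at least 2 of the 5 genes Ncr1, Klrb1c, Klre1, Gzma and Eomes were detected and none of the 8 genes Cd3d, Cd3e, Cd3g, Trdc, Cd8a, Cd8b1, C1qa and C1qb was. The rule found 191 NK cells among 29496 cells of 8 libraries (0.648%). Wild-type libraries 1, 2, 5 and 6 gave 4, 10, 34 and 46 NK cells, and deleted libraries 3, 4, 7 and 8 gave 12, 20, 25 and 40. Values for all 8 libraries are given in this order throughout. Gene levels were compared between host genotypes in the 5 libraries with at least 20 NK cells, which are wild-type 5 and 6 and deleted 4, 7 and 8 and hold 165 of the cells.

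The tumors grew from MB49, a mouse urothelial cancer line of male C57BL/6J origin, injected under the skin of the hosts. Wild-type hosts were C57BL/6 UbcreERT2/+;Atg7+/+ and deleted hosts were C57BL/6 UbcreERT2/+;Atg7f/f, so both carried the tamoxifen-inducible Cre, which is driven by a ubiquitin promoter active in most tissues. All hosts received tamoxifen on 4 days, which removes the floxed Atg7 copies in the deleted hosts. Tumor cells followed 1 week later at 2 sites per mouse. The tumors, taken 3 weeks after that, were dissociated and strained, and a density gradient was used to isolate mononuclear cells before capture with a 10x Genomics 5' kit. The age and sex of the hosts are not stated in the labels. The labels do not say which tumors share a mouse, so libraries may not be independent animals and p-values may be too small. Atg7 itself, an enzyme needed to build autophagosomes, was too scarce in NK cells to check the genotype. Its level was 0, 0.438, 0 and 0.188 UMIs per 10000 in the wild-type libraries and 0, 0.141, 0.0380 and 0.159 in the deleted libraries.

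NK cells are innate lymphocytes that kill infected or transformed cells without a rearranged antigen receptor. Each cell weighs signals from activating and inhibitory receptors, many of them lectin-like proteins encoded together in the NK gene complex on mouse chromosome 6. The Ly49 receptors (Klra genes) mostly bind class I MHC molecules, and each gene is switched on in only some of the cells, so that an NK population is a mosaic. Killing uses perforin and granzymes, serine proteases released from granules. In mice the granzyme genes beyond granzymes A and B include a cluster of close copies, Gzmc to Gzmg.

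The chosen cells carried further genes of NK cells that the rule did not read, though most of these are not confined to NK cells. Over the 8 libraries, Il2rb, a shared chain of the interleukin 2 and 15 receptors, was detected in 94.2% of them. Tyrobp and Fcer1g, signalling adaptors of NK receptors, were detected in 93.7% and 93.2%, Nkg7, a granule protein, in 90.1%, and Txk, a lymphocyte kinase, in 57.1%. The 10 genes whose mean level stood highest relative to all other cells were Gzma, Gzmc, Prf1, Eomes, Klrb1c, Car2, Gzmg, Gzmf, Txk and Klre1, of which Gzma, Eomes, Klrb1c and Klre1 were rule genes. Gzmf and Gzmg were each detected in only 17 of the 191 cells, and in none of deleted 4 and 7, so their means come from few cells. Xcl1, a chemokine gene that marks NK cells and was not in the rule, was detected in 68 of the 191 cells.

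The rule genes are given as a description, since they chose the cells. Gzma was detected in 75 to 100% of NK cells of each library, Klrb1c (the NK1.1 antigen) in 35 to 70%, Klre1 in 25 to 60%, Eomes, a transcription factor of NK cells, in 30 to 72%, and Ncr1 (the receptor NKp46) in 10 to 50%. Just inside the threshold were 103 cells with exactly 2 rule genes, and just outside it were 307 cells with 1, of which 136 had Gzma alone. Il2rb was detected in 91.3% of the cells with 2 rule genes and in 97.7% of the 88 cells with 3 or more, against 30.3% of the cells with 1. The keratin gene Krt18 of the tumor cells ran the other way, with 6.80%, 4.55% and 53.4%. The cells with 1 rule gene were also deeper, with a median of 9498 UMIs against 2747 and 3735.

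Markers of other cell types were counted in the NK cells. Of 423 cells with at least 2 rule genes, 232 were dropped, 156 of them with a Cd3 gene, 100 with a Cd8 gene, 42 with Trdc and 41 for a C1q gene alone. Of the 191 kept cells, 91 had at least 2 of the 9 listed T cell genes, whose summed level was 5.56 to 10.99 UMIs per 10000 across libraries. Trac, Cd6 and Bcl11b were detected in 10, 2 and 1 cells, and Cd5 in none, which allows a share of up to 1.57%. Trbc1 and Trbc2, T cell receptor constant genes, were detected in 125 and 62 cells, and Thy1, a surface gene of T cells and some innate lymphocytes, in 103. Cxcr6 was detected in 4 cells, and Itga1, which marks resident innate lymphocytes, in 34.

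Some transcripts of other cells moved with genotype in the NK cells. The summed level of 5 fibroblast markers was 0 in wild-type 5 and 6 and 0.0985 to 14.8 UMIs per 10000 in deleted 4, 7 and 8, and Col1a1 was detected in 11 of 12 NK cells of deleted 3, 10 of 20 of deleted 4, 1 of 25 of deleted 7 and 1 of 40 of deleted 8, and in none of the wild-type libraries. The sum of 5 markers of the malignant cells was 1.40 to 2.36 in wild-type 5 and 6 and 0 to 0.476 in the 3 deleted libraries. The sum of 8 macrophage and monocyte markers overlapped, with 0.288 to 2.11 and 0.725 to 4.18. Their part in the gene results below was not tested, except where values are given.

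Depth and a library difference also bear on the comparison. Libraries held 964 to 6070 cells and 4371773 to 59235799 UMIs. The median UMIs per NK cell were 1601 and 2628 in wild-type 5 and 6 and 5644, 3445 and 2913 in deleted 4, 7 and 8, a mean of 2114 ± 726 (SD, n = 2) against 4000 ± 1448 (SD, n = 3). The groups did not overlap, and the exact permutation test gave p = 0.2, the smallest that 2 against 3 libraries allow. Libraries 1 to 4 differed from libraries 5 to 8 in their cell barcodes: the 5-base barcode starts in common with library 1 were 91.0 to 94.4% in libraries 2 to 4 and 29.8 to 33.9% in libraries 5 to 8. Several genes parted these 2 sets over all cells, among them Wdr89 (3.48 to 8.31 against 0.0931 to 0.683 UMIs per 10000) and Gm10076 (0.153 to 0.202 against 46.1 to 126). Deleted 4 is the only tested library of the first set, so set and genotype are partly confounded. In fits of the 5 tested libraries, a term for the barcode set is taken up by deleted 4 alone. Its log2 differences then equal those obtained by leaving out deleted 4, and it does not correct for the set in the other libraries. No barcode of an NK cell was shared between libraries.

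NK cells made up 0.174%, 0.317%, 0.560% and 0.820% of the cells of the wild-type libraries. In the deleted libraries the share was 0.304%, 0.815%, 2.59% and 0.800%. Deleted 7, the library with the fewest cells, stood above all others, with an exact (Clopper-Pearson) 95% interval of 1.69 to 3.81%, and the other 3 deleted libraries lay within the wild-type range. The means were 0.468% ± 0.284 and 1.13% ± 1.01 (SD, n = 4 each), a difference of 0.660 percentage points that did not pass the two-sided exact permutation test (p = 0.286). Without deleted 7 the difference was 0.172.

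**Figure D1:**
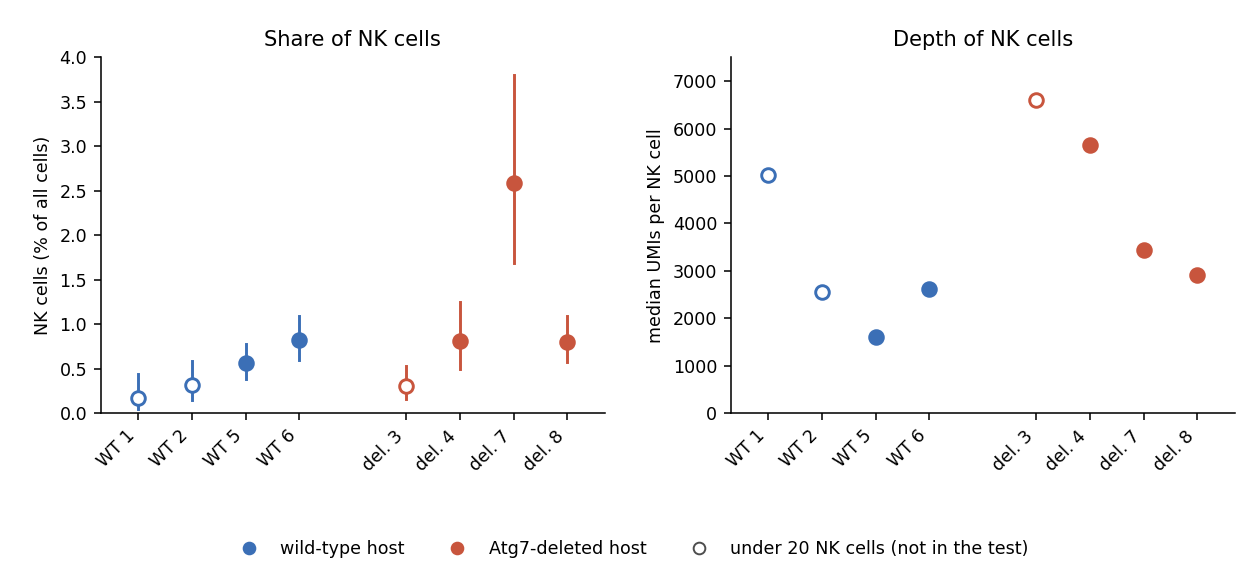
Share of NK cells (percent of all cells, with exact 95% binomial intervals for counting error only) and median UMIs per NK cell in each library, by host genotype. Deleted 7 stands apart in the share at 2.59%, and the tested deleted libraries sit above the tested wild-type libraries in depth.

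The share depends on how many tumor cells a library held. Malignant cells, taken as cells with Krt8 and Krt18 and without Ptprc, were 54.4%, 42.9%, 64.4% and 56.5% of the wild-type libraries and 0.456%, 3.87%, 9.23% and 1.36% of the deleted libraries, with no overlap. Of the cells that were not malignant, NK cells were 1.09% ± 0.728 in wild-type and 1.20% ± 1.13 in deleted libraries (SD, n = 4 each; exact permutation p = 0.857). Of cells with Ptprc, the common leukocyte gene, they were 1.97% ± 1.52 and 2.74% ± 3.28 (exact permutation p = 0.8). The C1q genes of the rule alone removed 15 and 16 cells from deleted 3 and 4 and at most 4 from any other library, and with these kept the shares of all cells were 0.508% and 1.41% (exact permutation p = 0.0571). The tissue steps before capture can change shares, and fewer NK cells cannot be told apart from more of other cells in them.

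In NK cells 7784 genes were tested, and 15 passed at an adjusted p of 0.05 (0.193% of those tested; limma with Benjamini-Hochberg adjustment over all genes). Higher in deleted hosts were 6 genes (0.0771%), Gm42418, Wdr89, Taf1d, Atp5k, Rpl38 and Mir142hg. Lower were 9 genes (0.116%), among them 5 granzymes (Gzmc, Gzmd, Gzme, Gzmf and Gzmg) and 3 receptors (Klra4, Klra8 and Klrb1b). Log2 differences here are differences of the mean deposited log value, deleted minus wild type, and the median over all tested genes was 0.05, with 5357 of 7784 positive. The prior degrees of freedom of the fit were not finite, so its standard errors came from the trend over all genes and not from each gene's own spread between libraries. An unadjusted p below 0.05 was reached by 480 genes (6.17%), and the mean log values of the genotypes did not overlap for 22.9%. A gene detected only in the NK cells of wild-type libraries was tested through those libraries and had to differ. No gene passed without wild-type 5 or without wild-type 6, where the lone wild-type library is assumed to vary like the others.

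**Figure D2:**
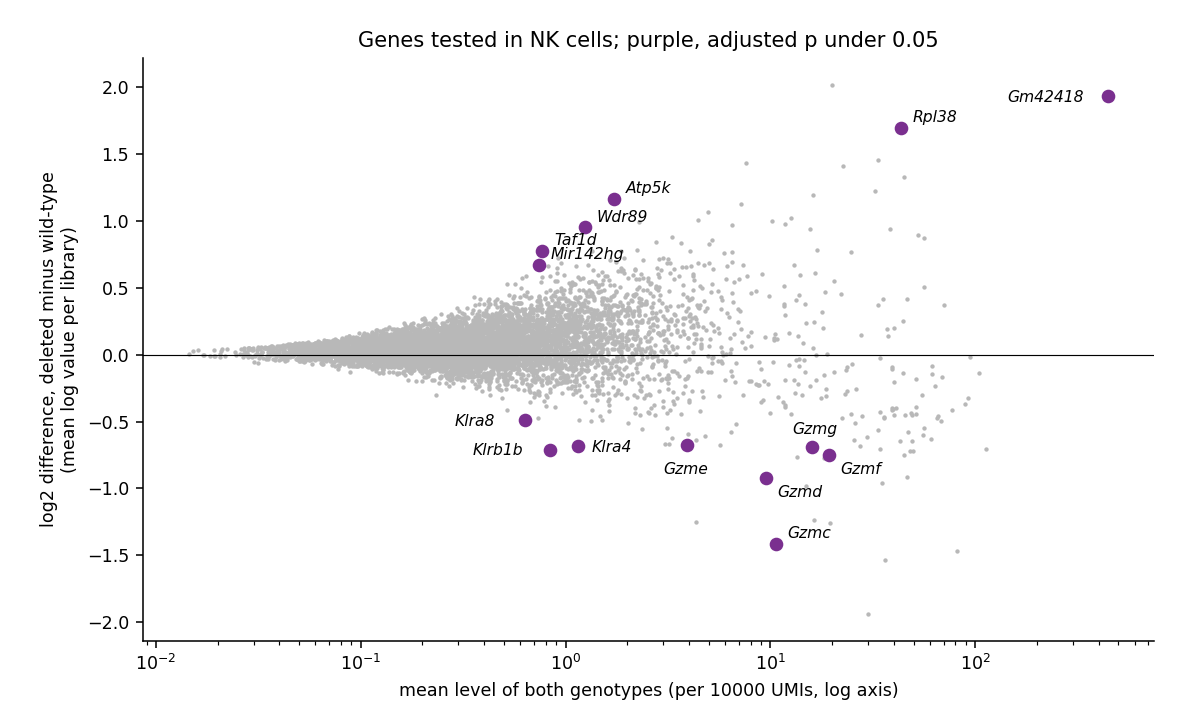
Log2 difference of tested genes in NK cells against their mean level (UMIs per 10000, log axis); purple points are the 14 named genes that passed the limma test. The granzyme and receptor genes lie below the bulk of genes of their level, and Gm42418 at 1.93 lies among the highest.

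The receptor genes that fell lie in the NK gene complex. Klra4 encodes Ly49D, an activating receptor that signals through the Tyrobp adaptor. It stood at 0.248, 2.09, 2.20 and 2.38 UMIs per 10000 in NK cells of the wild-type libraries and at 0 in all 4 deleted libraries, so the genotypes did not overlap, although the value of wild-type 1 came from 1 cell. In the tested libraries 41 UMIs of 341938 were Klra4 in wild-type NK cells and none of 393436 in deleted NK cells. A floor of 3 counts over the deleted group lay 15.7-fold below the wild-type level. This is a lower bound of the ratio, and it leaves out the counting error of the wild-type UMIs. The log2 difference was -0.69 (SE 0.14, limma adjusted p = 0.00136). The limma adjusted p was 0.396 with the 3 small libraries included and 0.243 after thinning every cell to 1000 UMIs.

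Klra8 encodes Ly49H, the activating receptor for a cytomegalovirus protein. Its level was 0, 1.26, 0.891 and 1.63 UMIs per 10000 in the wild-type libraries and 0 in every deleted library. Wild-type 1, with 4 NK cells, was thus at the deleted level. The tested wild-type libraries held 26 Klra8 UMIs and the deleted libraries none, a lower bound of 9.97-fold by the same reckoning as for Klra4 (log2 difference -0.49, SE 0.12, limma adjusted p = 0.0249). The call was lost on leaving out any of the 5 libraries (limma adjusted p = 0.183 to 0.953), after thinning (0.672), on summed UMIs (0.514) and without the detection filter (0.276). Of the 91-base stretches of Klra8 transcripts 15.9% also occur in other genes, most in the pseudogene Klra14-ps, so its counts are less certain than those of Klra4, for which the share is 0.

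Klrb1b encodes NKR-P1B, an inhibitory receptor for the lectin-like ligand Clec2d. It was at 3.28, 3.25, 1.98 and 1.27 UMIs per 10000 in the wild-type libraries and at 0, 0.134, 0.0242 and 0 in the deleted libraries. Every wild-type library lay above every deleted library. In the tested libraries the mean was 1.63 ± 0.497 (SD, n = 2) against 0.0528 ± 0.0715 (SD, n = 3), a log2 difference of -0.71 (SE 0.15, limma adjusted p = 0.00188). The summed counts were 43 and 3 UMIs, a ratio of 16.5 with a 95% counting interval of 5.28 to 83.1. With all 8 libraries Klrb1b was the only gene that passed in the lower direction (log2 difference -1.04, limma adjusted p = 0.00647), while in the 5 libraries thinned to 1000 UMIs per cell its adjusted p was 0.371. Of its 91-base stretches, 22.8% are shared with the overlapping gene model Gm44511.

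Klra9, the inhibitory receptor Ly49I, had the same arrangement without passing the test. Its level was 0, 2.37, 1.07 and 0.959 UMIs per 10000 in the wild-type libraries and 0, 0.0789, 0 and 0 in the deleted libraries (log2 difference -0.41, SE 0.12, limma adjusted p = 0.127). There were 20 UMIs against 1, a ratio of 23.0 with a wide 95% counting interval of 3.68 to 954. At least 1 UMI of Klra4, Klra8 or Klra9 was seen in 1 of 4, 5 of 10, 13 of 34 and 19 of 46 NK cells of the wild-type libraries, and in 0 of 12, 1 of 20, 0 of 25 and 0 of 40 of the deleted libraries. The zeros in deleted 3, 7 and 8 allow shares of up to 25%, 12% and 7.5% of cells with a UMI. After thinning every cell to 1000 UMIs, 34.5% and 19.6% of the cells of wild-type 5 and 6 and 5%, 0% and 0% of those of deleted 4, 7 and 8 had one.

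Neighbouring Ly49 genes did not follow. Klra3, the inhibitory receptor Ly49C, was at 0, 1.80, 0.201 and 0.317 UMIs per 10000 in the wild-type libraries and at 1.08, 1.70, 1.28 and 0.796 in the deleted libraries. The tested deleted libraries lay above the tested wild-type ones, but wild-type 2 was above them all, and the gene did not pass (log2 difference 0.54, SE 0.17, limma adjusted p = 0.251). Klra7, the inhibitory receptor Ly49G, was at 0, 2.72, 2.499 and 1.31 and at 1.04, 1.03, 1.28 and 1.51 (log2 difference -0.13, SE 0.20, limma adjusted p = 0.917). Klra3 or Klra7 was detected in 10 of 34 and 14 of 46 cells of wild-type 5 and 6 and in 12 of 20, 14 of 25 and 13 of 40 of deleted 4, 7 and 8. NK cells with a Ly49 transcript were therefore present in both genotypes: any Ly49 gene was found in 50% and 63.0% of cells of wild-type 5 and 6 and in 70%, 64% and 40% of deleted 4, 7 and 8.

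**Figure D3:**
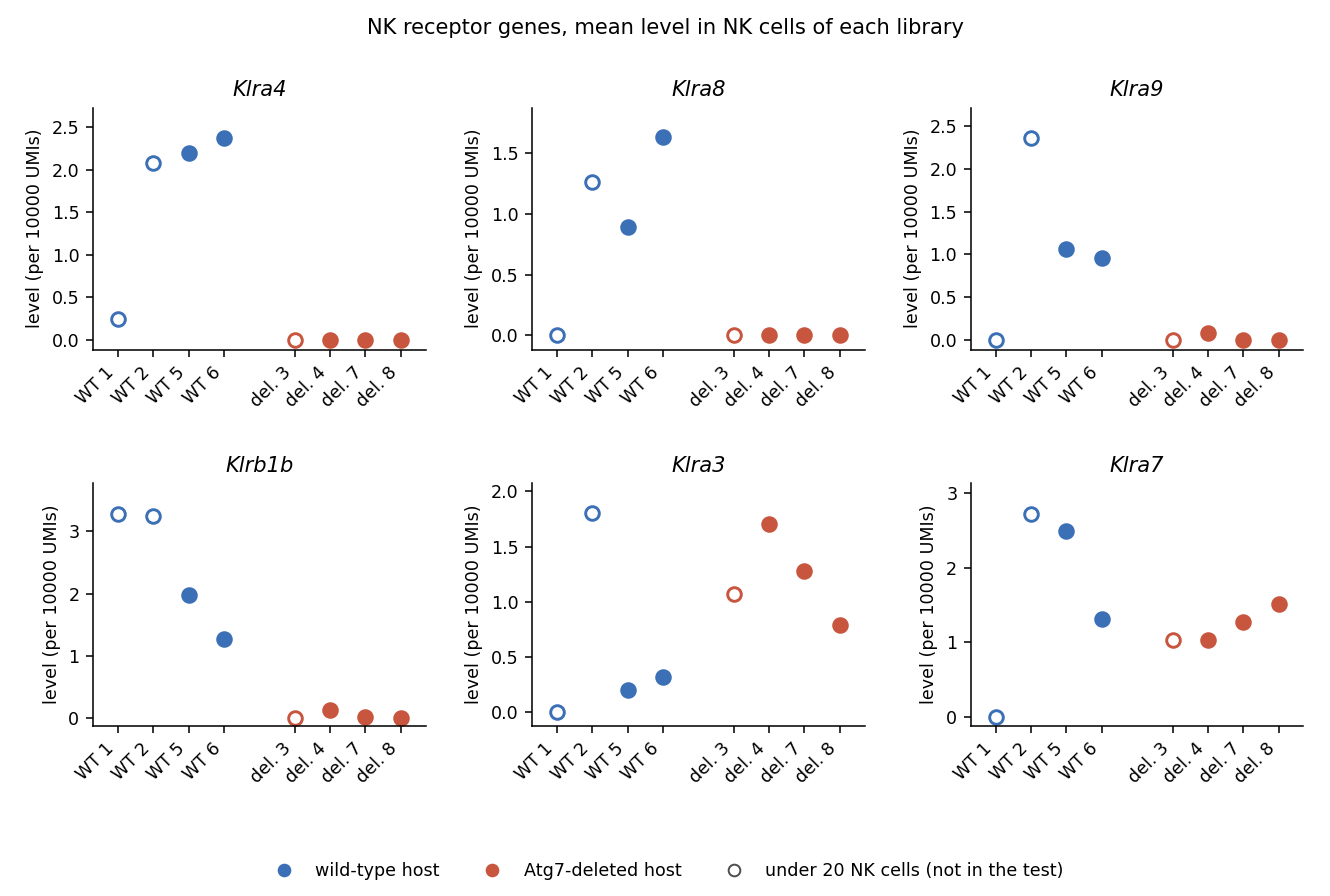
Mean level (UMIs per 10000) of 6 receptor genes in NK cells of each library, by host genotype; open circles are libraries with under 20 NK cells. Klrb1b separates all 4 wild-type from all 4 deleted libraries, Klra4 does so with 0.248 in wild-type 1 from 1 cell, Klra8 and Klra9 do so apart from wild-type 1, and Klra3 and Klra7 are present in every deleted library.

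On mm10 these genes lie in order on the minus strand of chromosome 6: Klrb1b at 128813706 to 128826331, Klra4 at 130043731 to 130067271, Klra8 at 130115226 to 130129898, Klra9 at 130178675 to 130193112, Klra7 at 130218605 to 130233322 and Klra3 at 130323289 to 130337574. Atg7, the gene that differs between the hosts, is on the same chromosome at 114643097 to 114860614, and Klrb1b to Klra3 lie 13.95 to 15.5 Mb beyond it. The rule genes Klrb1c and Klre1 lie in the same region, 13.92 and 14.72 Mb from Atg7, so the cells were chosen partly by genes of this region. Of 144 tested genes within 20 Mb of Atg7, 3 were called (2.08%), against 0 of 254 on the rest of chromosome 6 and 12 of 7386 on other chromosomes (0.163%). The window was chosen after these values were seen. Whether the position has any part in the difference was not tested. The bases before the start of Klra4 and Klra8, the called Ly49 genes, are shown because both were at 0 in the same libraries. They come from RefSeq on GRCm38.p6 (minus strand), at 6:130067272-130067521 and 6:130129899-130130148, with the bases that differ in an alignment of both in capitals. They are 84.8% identical, whereas Klra4 is 54.0% identical to Klra3 and 53.6% to Klra7. Identity did not follow the levels for Klra9, which is 60.4% identical to Klra4 and 61.2% to Klra8 but 90.0% to Klra3.
Klra4: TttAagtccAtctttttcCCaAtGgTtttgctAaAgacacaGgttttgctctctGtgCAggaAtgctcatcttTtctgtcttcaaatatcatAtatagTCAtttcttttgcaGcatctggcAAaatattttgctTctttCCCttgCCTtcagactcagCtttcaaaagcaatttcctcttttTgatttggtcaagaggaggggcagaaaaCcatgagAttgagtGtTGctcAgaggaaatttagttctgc
Klra8: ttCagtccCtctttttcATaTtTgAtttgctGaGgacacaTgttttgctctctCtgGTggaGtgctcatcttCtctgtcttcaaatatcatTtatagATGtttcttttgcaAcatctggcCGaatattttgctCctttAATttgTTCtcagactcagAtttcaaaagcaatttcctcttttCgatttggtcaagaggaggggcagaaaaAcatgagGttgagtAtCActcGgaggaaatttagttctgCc

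Klra4 was also a transcript of the tumor cells. In malignant cells its level in the wild-type libraries was 1.80, 2.83, 1.33 and 1.76 UMIs per 10000, and 61.3 to 83.6% of them had a UMI. Malignant cells of deleted 4, 7 and 8 held 0.993, 0.642 and 0.690, and NK cells of the same libraries held none. Malignant cells were 3.87%, 9.23% and 1.36% of these libraries, against 42.9 to 64.4% of the wild-type libraries. Whether tumor RNA had a part in the Klra4 of NK cells was not tested. CD8 T cells of the wild-type libraries, which share the free RNA of the suspension, stood at 0.0801, 0.212, 0.110 and 0.0874, below the NK cells of the same library. CD8 T cells of the deleted libraries stood at 0, 0.0274, 0 and 0, so they too were lower than in wild type without overlap. In NK cells without any of the 5 malignant markers, Klra4 was at 2.49 UMIs per 10000 in wild-type 5 (8 of 30 cells) and 2.62 in wild-type 6 (8 of 41 cells), as high as in all NK cells of these libraries. In wild-type 2 it was 4.17 (1 of 5 cells), and in wild-type 1 it was 0 (0 of 2 cells), so that without cells holding a malignant marker wild-type 1 stood at the level of the deleted libraries. Klra8 and Klrb1b were at 0 to 0.0114 in malignant cells of all libraries.

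Most of the other receptors of the NK gene complex did not pass. Of 10 tested genes of the NKR-P1, CD94, NKG2 and KLRG families, 1 was lower (Klrb1b), and the median log2 difference was 0.13. Over all tested genes 9 of 7784 were lower (0.116%). Klrd1 (CD94) was at 4.43 and 4.34 UMIs per 10000 in wild-type 5 and 6 and at 5.11, 3.17 and 5.78 in deleted 4, 7 and 8. Klrk1, the activating receptor NKG2D, was at 1.11 and 2.36 and at 2.53, 1.60 and 1.68, and Klrc1, the inhibitory receptor NKG2A, at 2.70 and 1.67 and at 1.70, 0.952 and 2.87. These ranges overlapped. Klrc2, the activating NKG2C, was at 0.402 and 0 in wild-type 5 and 6 and at 2.86, 0.410 and 0.741 in the deleted libraries (limma adjusted p = 0.136). Of the 13 listed Ly49 genes 6 were tested, and 2 were lower (Klra4 and Klra8, median log2 difference -0.27), beside the same 0.116% over all tested genes. The lectin-like ligand and neighbour genes gave no call among 6 tested, and Clec2d, the ligand of NKR-P1B, was at 0.198 and 1.10 in wild-type 5 and 6 and 0.867, 0.940 and 0.339 in deleted 4, 7 and 8.

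The granzyme cluster on chromosome 14 was the other group of called genes. Gzmd was at 96.9, 68.1, 8.61 and 29.3 UMIs per 10000 in the wild-type libraries and at 19.95, 0, 0 and 0.103 in the deleted libraries. The tested libraries did not overlap (18.96 ± 14.6, SD, n = 2, against 0.0344 ± 0.0596, SD, n = 3; log2 difference -0.92, SE 0.16, limma adjusted p = 1.38e-05), but deleted 3, left out for its 12 NK cells, held Gzmd at the wild-type level. With the 3 small libraries included, the adjusted p was 0.541.

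Gzmc, the member found in most cells, was at 49.6, 22.1, 15.4 and 20.5 UMIs per 10000 in the wild-type libraries. In the deleted libraries it was at 30.9, 2.56, 1.25 and 5.98. The log2 difference in the tested libraries was -1.41 (SE 0.28, limma adjusted p = 0.00136), and 0.541 was its adjusted p with all 8. The others ran the same way: Gzme was at 4.48 and 10.0 in wild-type 5 and 6 against 0, 0 and 1.65 in deleted 4, 7 and 8, Gzmf at 10.9 and 54.4 against 0, 0 and 18.0, and Gzmg at 6.86 and 50.2 against 0, 0 and 10.1 (log2 differences -0.67, -0.75 and -0.69; limma adjusted p = 0.00332, 0.00217 and 0.00332). In level, deleted 8 lay above wild-type 5 for Gzmf and Gzmg, although the mean log values did not overlap. Each of the 3 genes was also present in deleted 3, at 4.55, 9.70 and 17.9. With all 8 libraries their limma adjusted p were 0.541, 0.396 and 0.416, and with the barcode set also as a term they were 0.134, 0.0348 and 0.0574, so that Gzmf passed (log2 difference -1.04).

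Few cells made up these levels. At least 1 of Gzmd, Gzme, Gzmf and Gzmg was detected in 3 of 4, 2 of 10, 7 of 34 and 8 of 46 NK cells of the wild-type libraries and in 6 of 12, 0 of 20, 0 of 25 and 2 of 40 of the deleted libraries. In wild-type 6 a single cell held 61.1% of the UMIs of Gzmc to Gzmg, in wild-type 5 75.3%, and in deleted 8 95.04%. In wild-type 1 and 2, where levels were highest, a single cell held 98.2% and 98.5%, and in deleted 3 it held 52.8%. At 1000 UMIs per cell the shares were 20.7% and 15.2% in wild-type 5 and 6 and 0%, 0% and 2.63% in deleted 4, 7 and 8. CD8 T cells had these transcripts in 6.84% and 8.28% of cells in wild-type 5 and 6 and in 2.90%, 0% and 6.48% in deleted 4, 7 and 8.

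**Figure D4:**
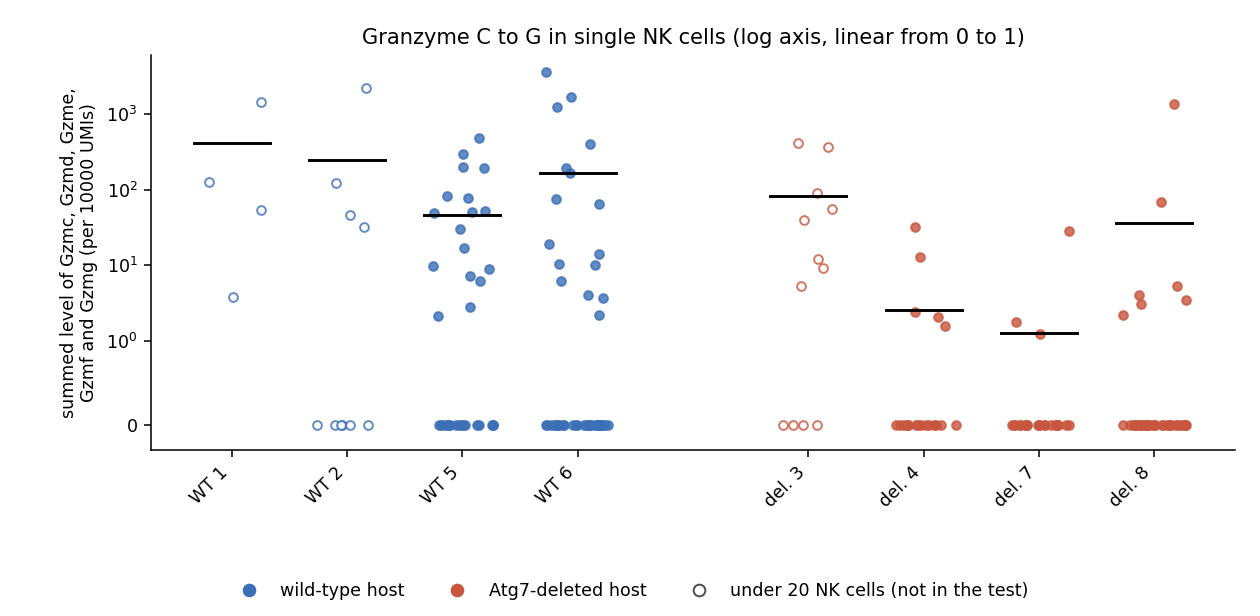
Summed level of Gzmc, Gzmd, Gzme, Gzmf and Gzmg in each NK cell (UMIs per 10000, log axis above 1 and linear below), by library; black bars are library means and open circles are libraries with under 20 NK cells. Cells above 100 occur in all 4 wild-type libraries and in deleted 3 and 8, and none in deleted 4 and 7.

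The 28 cells with Gzmd, Gzme, Gzmf or Gzmg are described beside the other 163, with no test, since they were picked by these genes. They had more UMIs, with medians of 7401 and 2754. After thinning to 1000 UMIs, Spp1 (osteopontin) was detected in 82.1% of them and in 12.3% of the others, Lgals3 in 60.7% and 22.1%, Gzmb in 75.0% and 44.2%, and Prf1, the pore-forming perforin, in 60.7% and 28.6%. Itga1 was detected in 14.3% and 5.84%. The chemokine genes ran the other way, Ccl5 with 21.4% and 77.9% and Xcl1 with 3.57% and 20.8%. Of the rule genes, Eomes was detected in 21.4% and 22.7%, Klrb1c in 17.9% and 24.0%, and Gzma in 78.6% and 72.7%. Klre1 was detected in 14.3% and 16.9%, and Ncr1 in 3.57% and 10.4%.

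The 250 bases before the start of Gzmc to Gzmg are shown because the 5 genes moved together (RefSeq, GRCm38.p6, chromosome 14, minus strand, in the order Gzmc, Gzmd, Gzme, Gzmf and Gzmg: 14:56234658-56234907, 14:56132594-56132843, 14:56120626-56120875, 14:56211408-56211657 and 14:56159580-56159829). Capitals mark TGTGGT, the core letters bound by Runx factors, or its reverse complement ACCACA. The motif was chosen after the values were seen.
Gzmc: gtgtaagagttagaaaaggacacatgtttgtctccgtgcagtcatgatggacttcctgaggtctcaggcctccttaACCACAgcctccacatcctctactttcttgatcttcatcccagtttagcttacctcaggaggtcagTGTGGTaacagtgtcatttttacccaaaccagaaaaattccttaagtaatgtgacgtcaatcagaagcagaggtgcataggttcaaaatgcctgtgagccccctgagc
Gzmd: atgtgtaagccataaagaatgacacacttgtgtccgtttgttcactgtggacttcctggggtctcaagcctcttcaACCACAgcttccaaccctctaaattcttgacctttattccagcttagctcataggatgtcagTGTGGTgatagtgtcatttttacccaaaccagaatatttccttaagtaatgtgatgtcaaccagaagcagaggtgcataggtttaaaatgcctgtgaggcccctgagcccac
Gzme: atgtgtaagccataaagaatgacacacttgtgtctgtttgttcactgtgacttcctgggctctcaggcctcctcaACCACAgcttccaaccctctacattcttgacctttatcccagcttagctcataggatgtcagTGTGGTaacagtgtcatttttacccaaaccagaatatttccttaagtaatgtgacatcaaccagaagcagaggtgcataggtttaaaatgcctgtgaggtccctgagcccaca
Gzmf: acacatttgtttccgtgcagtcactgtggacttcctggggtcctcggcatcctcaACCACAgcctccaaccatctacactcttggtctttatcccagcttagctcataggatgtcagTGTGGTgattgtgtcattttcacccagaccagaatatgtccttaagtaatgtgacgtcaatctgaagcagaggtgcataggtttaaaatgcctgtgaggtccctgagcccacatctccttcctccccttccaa
Gzmg: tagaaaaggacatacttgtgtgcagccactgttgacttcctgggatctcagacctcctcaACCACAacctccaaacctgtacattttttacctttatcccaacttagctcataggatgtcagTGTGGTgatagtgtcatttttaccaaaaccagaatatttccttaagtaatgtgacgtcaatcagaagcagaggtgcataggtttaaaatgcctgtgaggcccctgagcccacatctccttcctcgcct

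Each of the 5 held 2 matches, the first at positions -195 to -174 and the second at -133 to -108 relative to the start. At least 1 match was found in 14.04% of 32817 promoter windows of this length and at least 2 in 1.27%. The 5 sequences were 77.6 to 95.2% identical in pairs, so their matches are not independent. Gzmb, 49.6 to 56.0% identical to them, also held 2 matches, at other positions. At most 1.95% of the 91-base stretches of any of the 5 transcripts occurs in another gene (Gzmd). These are exact matches over whole transcripts, and how many reads of the 5' kit could be exchanged between the genes was not tested.

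The remaining granule genes did not pass. Of 19 tested genes of granules and killing, 4 were lower (Gzmc, Gzmd, Gzme and Gzmf, Gzmg not being on the list), and the median log2 difference was 0.00. Over all tested genes 9 of 7784 were lower (0.116%). Gzmb was at 22.0 and 15.3 UMIs per 10000 in wild-type 5 and 6 and at 4.16, 12.02 and 8.39 in deleted 4, 7 and 8 (log2 difference -0.77, SE 0.54, limma adjusted p = 0.813). Prf1 was at 6.60 and 6.61 and at 4.44, 4.30 and 6.85, which overlapped. Nkg7 was at 11.7 and 21.6 and at 11.7, 12.4 and 11.2.

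Among the genes higher in deleted hosts, Mir142hg, the host transcript of a blood cell microRNA, was the only one whose genotypes did not overlap over all 8 libraries. It was at 0, 0.749, 0.396 and 0 UMIs per 10000 in the wild-type libraries and at 0.855, 1.33, 1.74 and 0.781 in the deleted libraries (log2 difference 0.67, SE 0.17, limma adjusted p = 0.0498). With the barcode set as a term its log2 difference was 0.57, the same as without deleted 4, and it did not pass (limma adjusted p = 0.326). Taf1d, a subunit of an RNA polymerase I factor, was at 0.679, 0.494, 0.185 and 0.179 and at 0.485, 1.37, 1.28 and 1.42 (log2 difference 0.78, limma adjusted p = 0.0236; with the barcode set as a term 0.72 and 0.104).

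Rpl38, a ribosomal protein gene, was at 85.1, 67.2, 40.9 and 11.7 UMIs per 10000 in the wild-type libraries and at 67.0, 53.2, 67.8 and 59.8 in the deleted libraries. The genotypes overlapped through wild-type 1 and 2 (limma adjusted p = 0.0380 in the tested libraries). Gm42418, Atp5k and Wdr89 differed between the barcode sets in NK cells of all 8 libraries with no overlap. Atp5k, a subunit gene of the ATP synthase, was at 0.738 and 0.673 in wild-type 5 and 6 and at 3.56, 2.40 and 2.30 in deleted 4, 7 and 8 (log2 difference 1.16, limma adjusted p = 0.0266; with the barcode set as a term 0.91 and 0.406). Gm42418, a transcript overlapping a ribosomal RNA repeat, was at 878, 776, 208 and 126 in wild-type and at 1078, 1591, 210.1 and 376 in deleted libraries (log2 difference 1.93, SE 0.12, limma adjusted p = 4.86e-50). Deleted 7 and wild-type 5 were at nearly the same level, and this p does not reflect the spread of Gm42418 between libraries. Its log2 difference was 0.92 with the barcode set as a term (limma adjusted p = 4.67e-12) and 0.93 with all 8 libraries (0.585), and on summed UMIs it did not pass (0.703). Wdr89 had a log2 difference of 0.95 in the tested libraries (SE 0.20, limma adjusted p = 0.00188) and of 0.16 with the barcode set as a term (0.93). With all 8 libraries, 2 of each genotype in each set, it was 0.27 with the set as a term (0.754). Its log2 difference in CD8 T cells was 0.87.

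No gene of the other 17 lists passed. The cytokine and chemokine list had 12 tested genes. Ifng was at 0.741 and 1.16 UMIs per 10000 in wild-type 5 and 6 and at 0.669, 3.53 and 1.18 in deleted 4, 7 and 8, and Ccl4 at 1.90 and 7.04 and at 1.90, 7.05 and 16.4. Xcl1 was at 2.56 and 2.69 and at 1.40, 0.755 and 7.10, and Ccl5 at 73.7 and 129 and at 103, 81.7 and 74.7. All 4 genes overlapped between genotypes. Among 23 tested cytokine receptor and JAK-STAT genes the median log2 difference was 0.09, and Il2rb was at 21.5 and 14.1 and at 16.0, 19.9 and 21.5.

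The transcription factor list had 24 tested genes, 22 of them with a positive difference, and a median of 0.20, beside 5357 positive of 7784 and a median of 0.05 over all tested genes. Stat4, a signal transducer of interleukin 12, was at 0.603 and 0.924 UMIs per 10000 in wild-type 5 and 6 and at 1.75, 1.55 and 2.12 in deleted 4, 7 and 8, without overlap (limma adjusted p = 0.346). Tbx21, which encodes T-bet, was at 0.945 and 0.636 and at 0.808, 1.62 and 1.65. The 20 genes of dissociation and immediate early responses had a median of 0.33, with 19 positive and 10 without overlap in mean log value, beside 22.9% without overlap over all genes. Atf3, a stress gene of this list, was at 0.0911 and 0 and at 0.171, 1.40 and 0.553. These shifts stand beside the deeper NK cells of deleted libraries, whose part in them was not tested.

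The interferon gamma response list had 16 tested genes, with a median log2 difference of 0.26, and 15 were positive, beside 5357 of 7784 over all genes. The class I MHC heavy chain H2-K1 was at 35.9 and 30.02 UMIs per 10000 in wild-type 5 and 6 and at 35.4, 36.8 and 41.2 in deleted 4, 7 and 8. The type I interferon list had a median of -0.01 over 16 genes. Of 20 tested autophagy genes none passed (median 0.03), and Sqstm1, an autophagy receptor, was at 6.34 and 9.05 and at 2.01, 13.4 and 8.31. Cell cycle genes had a median of 0.10 over 18, with Mki67, a proliferation gene, at 0 and 0.102 and at 0.0993, 1.87 and 0.747. The early and late NK maturation lists had medians of 0.17 over 10 and 0.10 over 8, and glycolysis and hypoxia genes 0.06 over 16.

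CD8 T cells, taken as cells with a Cd3 gene and Cd8a or Cd8b1 and without C1q genes, numbered 1120 and served to ask which genotype differences were particular to NK cells. The test of the difference itself, NK minus CD8 T cells in the same 5 libraries, called none of 7784 genes (0.0%; limma with Benjamini-Hochberg adjustment), and 353 had an unadjusted p below 0.05 (4.54%). Gzmd had a difference between the cell types of -0.90 (limma adjusted p = 0.177), Klra4 of -0.62 and Klrb1b of -0.68 (both 0.327). CD8 T cells held little of Gzmd and Klrb1b in either genotype. Over all 8 libraries, their Gzmd means were 0.392 and 0.419 and Klrb1b means 0.0325 and 0 UMIs per 10000 in wild-type and deleted libraries. Gzmf was lower in CD8 T cells of deleted hosts, with 2.69 ± 3.29 and 0.0494 ± 0.0873 (SD, n = 4 each). Means of Gzmc were 0.471 and 0.382, of Gzme 0.155 and 0.340, and of Gzmg 0.0303 and 0. The Klra4 means of CD8 T cells were 0.122 and 0.00685, so Klra4 was lower in CD8 T cells of deleted hosts as well. The genotype differences of the called genes were therefore not shown to be particular to NK cells.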

How the data were processed

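Single-cell RNA was read from 8 tumor libraries, 4 per host genotype. The deposited values are the natural log of 1 plus UMIs per 10000 in each cell; per the submitters' processing notes the authors used Cell Ranger 2.1, Seurat 3.0 and mm10. Not given in the sources used here: alignment settings. The values gave back whole UMIs for 100% of entries within 0.01. Deposited cells had 201 to 5000 genes, at least 498 UMIs and at most 19.99% mitochondrial UMIs. No doublet caller was run, and 4 NK cells had over 4500 genes. The NK cells, the gene lists and the tests were chosen with earlier results of these data known.

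Levels in the text are mean UMIs per 10000 over the NK cells of a library. For the test, the mean deposited value per library was divided by the natural log of 2, and genes detected in at least 5% of NK cells in at least 2 libraries were fitted with limma 3.58.1 (R 4.3.3; trended variance, two-sided, Benjamini-Hochberg adjustment over all genes, threshold 0.05). The prior degrees of freedom were not finite, so p-values rest on the trend of the spread over genes. Shares and depths were compared by exact permutation. On simulated data 30.0% of 100 genes changed 4-fold and 50.0% of 100 changed 8-fold were called, with 2 calls among unchanged genes. The simulated cells of a library were drawn from a common profile, with no shift between barcode sets. The simulation therefore does not give the rate of false calls in these data. Thinning drew 1000 UMIs per cell and left out shallower cells. Symbols were matched to GENCODE M21 on mm10 for 98.7% of 19024 genes, and promoters came from RefSeq on GRCm38.p6.

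Named genes were the rule genes, Xcl1 and Atg7, every called gene of a list, the 10 largest called differences in each direction, the 3 most abundant tested members of each list and the 10 genes highest relative to other cells. Klra9, Klrc2, Ifng, Tbx21, Stat4, Atf3 and Mki67, the markers of other cell types and the genes set beside granzyme-positive cells were added after their values were seen. Intervals and limits cover counting error only. The alternatives were other scalings, filters, cell rules, thinning, library weights, the barcode set as a term and leaving out each library. A called gene is counted but not reported by name here.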

Additional observations from a re-analysis of the deposited data

How the results depend on the processing

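The number of genes that passed in NK cells depended on the processing (6 higher and 9 lower in deleted hosts by limma). Higher and lower counts were 0 and 1 on summed UMIs, 0 and 1 without the detection filter, 0 and 0 with cells chosen by at least 2 of Ncr1, Gzma and Eomes, which left 2 wild-type libraries and 1 deleted library with 68 cells (432 genes at an unadjusted p below 0.05), 1 and 2 after thinning, 0 and 1 with all 8 libraries, 1 and 2 with these and the barcode set as a term, and 1 and 2 with libraries of at least 10 NK cells. On log2(level + 0.1) 15 were lower, and with cells of at least 1000 UMIs 3 were higher. Leaving out each library gave 0 to 12 higher and 0 to 10 lower genes. Without wild-type 5 or 6 no gene passed (268 and 240 at an unadjusted p below 0.05). Without deleted 4, 7 or 8, each in turn, there were 4, 5 and 12 higher and 4, 4 and 10 lower genes. The cause was not tested.

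Small differences of uncalled genes turned sign (log2). Prf1 (0.00) was -1.56 on summed UMIs, -0.37 and -0.32 on log2(level + 0.1) and log2(level + 1), -0.029 with at most 10% mitochondrial UMIs, -0.049 with at least 1000 UMIs, -0.18 after thinning, -0.29 with all 8 libraries with or without the set term, -0.021 with at least 10 NK cells, and -0.20 to 0.20 leaving out each library. Xcl1 (0.16) was -0.28 on summed UMIs, -0.37 and -0.16 on both log2 scales, -0.034 with all 8 libraries with or without the set term, and -0.25 to 0.46 leaving out each library. Klra7 (-0.13) was 0.0037 with the cells chosen by at least 2 of 3 genes and 0.000645 after thinning, and Ifng (0.42) was -0.063 after thinning. The cause was not tested.

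The NK share stayed higher in deleted hosts in every alternative run and its difference was 0.172 to 0.935 percentage points leaving out each library, and the test against CD8 T cells called 0 genes in each alternative. The gene fit with at least 3 rule genes was not run because too few libraries had 20 such cells. No paired analysis was possible because the groups share no replicate numbers. The gene tests rest on 2 wild-type and 3 deleted libraries.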
